A study of Mus musculus with 24 samples.

Results

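Interferon-stimulated genes were examined across the hippocampus (HIP) and entorhinal cortex (EC) of Ts65Dn and wild-type (wt) mice. The set held 41 genes, chosen by symbol from genes known to be induced by interferons, and all 41 were found among the 55385 genes of the count table. None of the 41 lies in the segments that are triplicated in Ts65Dn. They were sorted by function into sensors of RNA or DNA, transcription factors, the IFIT and OAS families, the viperin pair, the ISG15 system and TRIM ligases, membrane restriction factors, the PARP9 complex and PARP14, interferon-inducible GTPases, and a remainder of other induced genes.

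RNA-seq of polyA RNA was performed on both regions of 12 male mice aged 5 to 6 months, 6 Ts65Dn and 6 wt littermates, which gave 24 libraries from 12 separate animals. Ts65Dn mice, a model of Down syndrome, carry an extra minichromosome that joins a distal part of mouse chromosome 16 (Mmu16) to a centromeric part of Mmu17. The Mmu17 part holds genes whose human counterparts are not on chromosome 21, so the line triplicates more than the orthologues of that chromosome. The mice came from The Jackson Laboratory and were kept, like their wt littermates, on an F1 B6C3B background. All were male and none was treated, so the data hold no females and no response to added interferon. The tissue was frozen whole, and in such bulk samples fewer cells of a type cannot be told apart from less RNA per cell.

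Interferons are cytokines, and those of types I and III are made by cells that sense viral nucleic acid or damage. Type I and type III interferons act through a complex with STAT2 and IRF9 that binds the interferon-stimulated response element (ISRE) in promoters, whereas interferon gamma acts on the gamma-activated site (GAS). In the brain, the induced genes are transcribed at a low basal level by microglia, vascular cells, glia and neurons, and several of them, such as Stat2, Irf7 and Irf9, encode parts of the pathway itself.

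Promoter windows from RefSeq (GRCm38.p6, from 250 bases before to 50 bases after the annotated start) were found for 32 of the 41 genes. The ISRE core, searched on both strands as GAAA, any 2 bases, GAAA, was present in 19 of these 32 (59.4%), against 1079 of the 27025 genes with a window (3.99%). The GAS core, searched on both strands as TTC, any 3 bases, GAA, was present in 9 of 32 (28.1%), against 2582 of the 27025 (9.55%). The letters of the 2 cores can overlap, and a match is a description of sequence, not a measured binding site. The stretches printed here carry the ISRE core of genes whose values are described below, read 5′ to 3′ in the direction of the gene, with the matched letters in capitals. In Isg15 (minus strand, chr4:156200855-156200916), 3 overlapping matches lay 78 to 57 bases before the start. In Bst2 (minus strand, chr8:71537567-71537622), 2 overlapping matches lay 130 to 115 bases before it. Rsad2 (minus strand, chr12:26456543-26456592) held 1 match on the opposite strand. The stretches of Ifit3 (plus strand, chr19:34583353-34583436) and of its near copy Ifit3b (plus strand, chr19:34607749-34607832) were identical over 84 of 84 bases. Those of the neighbouring GTPase genes Igtp (plus strand, chr11:58199502-58199551) and Irgm2 (plus strand, chr11:58214893-58214942) were identical over 48 of 50 bases.
Isg15: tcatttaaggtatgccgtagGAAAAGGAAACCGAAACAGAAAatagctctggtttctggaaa
Bst2: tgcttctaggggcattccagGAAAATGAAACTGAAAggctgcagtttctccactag
Rsad2: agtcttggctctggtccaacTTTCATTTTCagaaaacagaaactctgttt
Ifit3 and Ifit3b: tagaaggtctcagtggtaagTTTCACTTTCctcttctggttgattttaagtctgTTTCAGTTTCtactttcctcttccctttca
Igtp: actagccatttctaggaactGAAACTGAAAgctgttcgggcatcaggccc
Irgm2: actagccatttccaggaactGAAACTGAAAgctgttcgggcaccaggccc

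The libraries held 23128589 to 40476492 counts (median 28597506), and the 41 genes were low to moderate in them. Per length, as RPKM (counts scaled by exon length and library size, mean over 24 libraries), the highest levels were those of Ifi27, a small mitochondrial and nuclear envelope protein, at 19.3 ± 6.60 (SD), and of Ifitm3, which blocks virus entry at endosomes, at 11.5 ± 3.52. The mitochondrial nucleotide kinase Cmpk2 followed at 7.15 ± 0.914 RPKM, and Ifit2 led the IFIT family of RNA-binding antiviral proteins at 3.58 ± 0.553 RPKM. At the other end stood Oas2, an RNA-activated synthetase, at 0.103 RPKM, its relative Oasl1 at 0.0979 RPKM and the nucleic acid sensor Zbp1 at 0.0540 RPKM. Zbp1 received 0 to 14 counts per library and Oasl1 2 to 17. A count of 0 for Zbp1 in the HIP of Ts65Dn replicate 4 allows up to 3 counts. Both genes were too low for the test of genotype, which left 39 of the 41 genes tested in each region. Isg15 itself received 17 to 117 counts and Usp18 12 to 97, so counting error is a visible part of their spread.

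Several facts about the libraries touch the results. In the HIP, the triplicated genes (81 tested) stood at a median of 1.43 to 1.52 times the wt mean in 5 Ts65Dn libraries but at 1.03 times in the library labelled Ts65Dn replicate 3. In the EC (79 genes), they stood at 1.46 to 1.51 times in 5 libraries and at 0.996 times in the library of that mouse. The wt libraries lay between 0.984 and 1.01 times. Both libraries labelled Ts65Dn replicate 3 therefore lacked the raised dosage that the label implies. For the interferon-stimulated genes, the counts called by edgeR and the median genotype fold changes are given with and without this mouse. DESeq2 calls, cell markers, other pathway genes and the remaining values include it unless stated otherwise. Markers of dentate and CA neurons summed to 539 to 684 CPM (counts scaled to library size) in the HIP and 230 to 363 CPM in the EC, so the regions matched their labels.

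For each mouse, a score was taken as the mean over the 39 genes of log2 CPM minus the mean of the 6 wt libraries of that region. In the HIP, the 6 wt scores lay between −0.18 and 0.12. The Ts65Dn scores were 0.70 in replicate 1, 0.91 in replicate 2, 0.12 in replicate 3, −0.03 in replicate 4, 0.09 in replicate 5 and 0.37 in replicate 6. Replicates 1, 2 and 6 lay clear of every wt mouse, replicate 3 lay just above the highest of them, and replicates 4 and 5 lay within the wt range. The Ts65Dn mean was 0.36 with an SD of 0.37, against an SD of 0.11 in wt. In the EC, the wt scores lay between −0.18 and 0.13 and the Ts65Dn scores were 0.44, 0.33, −0.07, 0.12, 0.09 and 0.24 in replicates 1 to 6. The same 3 mice (replicates 1, 2 and 6) lay above every wt mouse in the EC, where the Ts65Dn mean was 0.19 with an SD of 0.18 and the wt SD was 0.13. No p is given for the score.

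**Figure D1:**
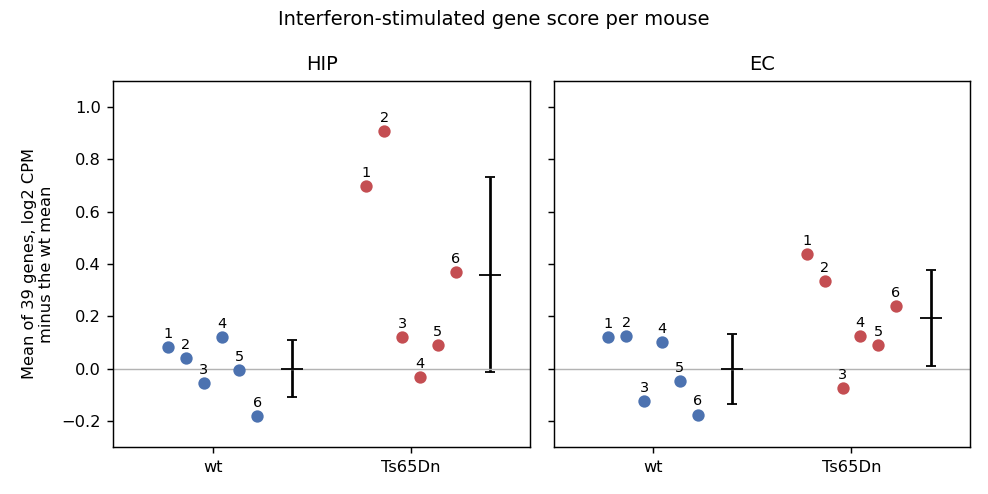
Score of the interferon-stimulated genes for each mouse in the HIP and EC (y axis, mean log2 CPM relative to the wt mean of the region), with points for mice and bars for the group mean and SD. Ts65Dn replicates 1, 2 and 6 lie above all wt mice in both regions, and the other Ts65Dn mice lie in or at the edge of the wt range.

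The score rested on most of the genes in those mice. In the HIP, 38 of 39 genes were above the wt mean in Ts65Dn replicate 1, 37 in replicate 2 and 34 in replicate 6, against 25 in replicate 3, 15 in replicate 4 and 24 in replicate 5. In replicate 2, 37 of 39 genes exceeded the highest wt library, where 18.5% of all genes tested did so. The number was 32 in replicate 1 (21.8% of all genes), 24 in replicate 6 (19.8%), 14 in replicate 3 (19.9%), 8 in replicate 4 (22.7%) and 9 in replicate 5 (15.1%). In the EC, 24 of 39 genes exceeded every wt library in Ts65Dn replicate 1 (18.4% of all genes), 17 in replicate 2 (19.0%), 13 in replicate 6 (18.1%), 8 in replicate 5 (17.3%), 6 in replicate 4 (19.3%) and 4 in replicate 3 (20.8%).

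The groups of genes did not all follow the same mice. In Ts65Dn replicates 1 and 2, the mean score in the HIP was 1.30 and 1.35 for the membrane restriction factors Bst2 and Ifitm3, and 0.82 and 1.16 for the ISG15 system and TRIM ligases. It was 0.75 and 0.80 for the GTPases and 0.40 and 0.39 for the viperin pair, Rsad2 and Cmpk2. In replicate 6, the GTPases (0.54), the ISG15 system and TRIM ligases (0.51) and the PARP9 complex with PARP14 (0.47) led, whereas the membrane restriction factors were at 0.19 and the sensors at 0.13. Replicate 3 was close to the wt mean in most groups, with 0.52 for the membrane restriction factors and 0.32 for the sensors.

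**Figure D2:**
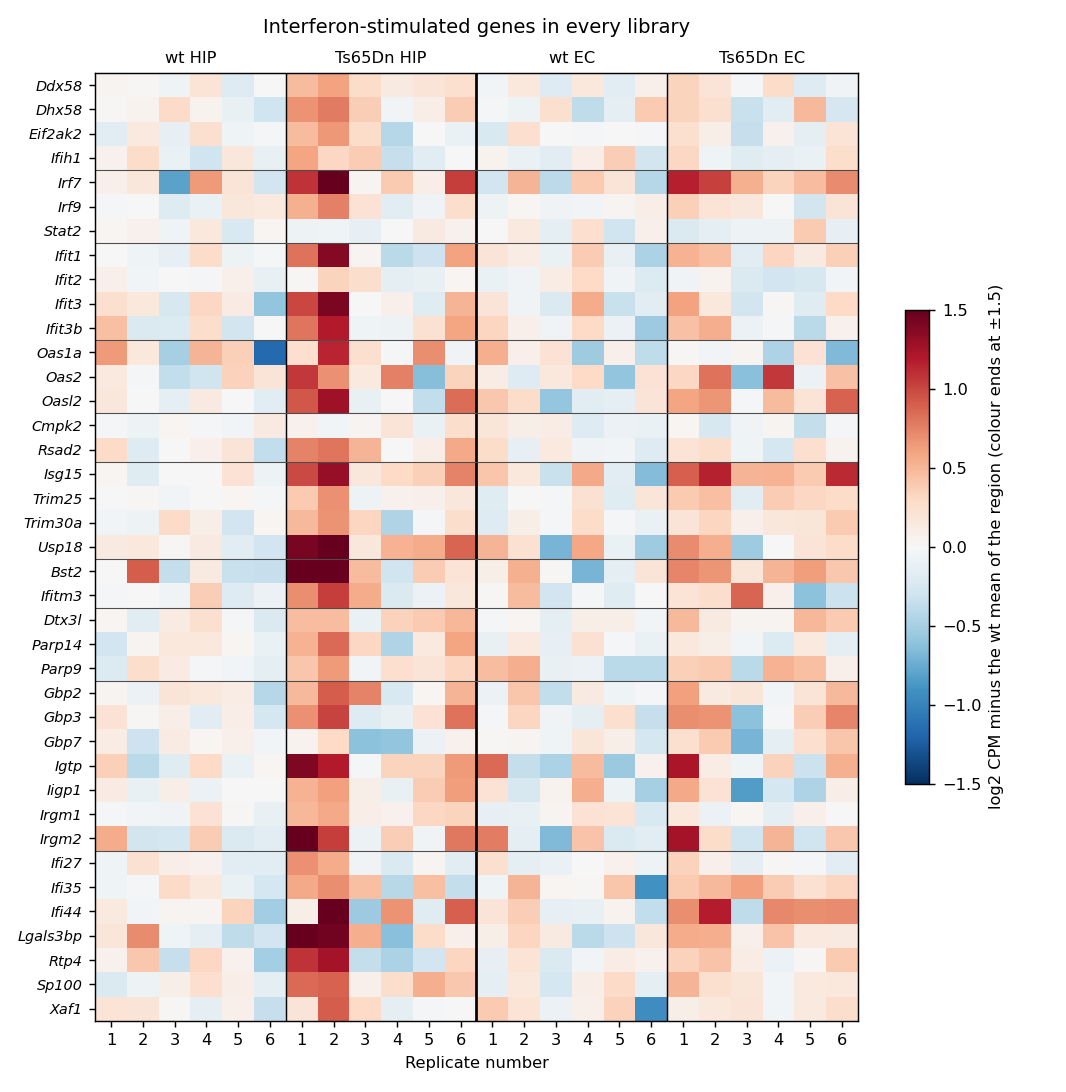
Log2 CPM of each interferon-stimulated gene tested in a region, minus the mean of the 6 wt libraries of that region (colour), with genes in lines by function group and one column per library. The HIP columns of Ts65Dn replicates 1 and 2 are raised over nearly all genes, with 38 and 37 of 39 above the wt mean.

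To ask whether the genotype changed these genes in the HIP, Ts65Dn was compared with wt (n = 6 each) using edgeR's quasi-likelihood test. No gene of the 39 passed an adjusted p of 0.05, where 1.04% of the 17355 genes tested did. At an unadjusted p under 0.05, 22 of the 39 were higher in Ts65Dn and 0 lower, against 7.23% of all genes tested that were higher at that level and 7.59% that were lower. The DESeq2 test called 4 of the 37 to which it gave an adjusted p (Usp18, Isg15, Sp100 and Irgm1, all higher), where it called 3.94% of all such genes. The log2 fold change was above 0 for 37 of 39 genes, against 51.3% of all genes tested. Its median was 0.41, against 0.005 over all genes, with a range from −0.11 (Gbp7) to 1.12 (Usp18).

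The counts in the HIP depended on single mice. The 22 genes at an unadjusted p under 0.05 became 11 without Ts65Dn replicate 1 (6.06% of all genes in the same fit), 10 without Ts65Dn replicate 2 (7.91%) and 11 without wt replicate 6 (6.28%). Without Ts65Dn replicate 3, the mouse with no raised dosage, the median was 0.43, 21 genes were at that level (8.58% of all genes) and 4 passed the adjusted p in edgeR (Usp18, Isg15, Sp100 and Dtx3l), where 1.82% of all genes did. The median without Ts65Dn replicate 2 was 0.27.

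Within the ISG15 system, Usp18, the protease that removes ISG15 from proteins and dampens type I receptor signalling, stood at 0.540, 0.712 and 0.759 CPM in wt HIP (lowest, median and highest) and at 0.762, 1.16 and 2.86 CPM in Ts65Dn. All 6 Ts65Dn libraries were above all 6 wt libraries, though the lowest was only just so. It was the only gene of the 39 whose groups did not overlap in the HIP, which held for 0.68% of all genes in that direction and 0.991% in the other. The log2 fold change was 1.12 (SE 0.30; edgeR adjusted p = 0.0939; DESeq2 adjusted p = 0.0247), and without Ts65Dn replicate 3 the edgeR adjusted p was 0.0374.

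Isg15, the ubiquitin-like protein that is conjugated to targets, had 1.19, 1.36 and 1.58 CPM in wt HIP and 1.52, 2.03 and 3.45 CPM in Ts65Dn. In Ts65Dn, 5 of 6 libraries lay above the wt range. Its log2 fold change was 0.73 (SE 0.20; edgeR adjusted p = 0.103; DESeq2 adjusted p = 0.0328). Of the TRIM ligases, Trim25, which ubiquitinates the sensor RIG-I, had a log2 fold change of 0.25 (SE 0.11; edgeR adjusted p = 0.332). Trim30a had 0.26 (SE 0.17; edgeR adjusted p = 0.530).

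Among the sensors, Ddx58, which encodes the RNA helicase RIG-I, stood at 5.06, 5.83 and 6.74 CPM in wt HIP and 6.40, 6.99 and 8.91 CPM in Ts65Dn. In Ts65Dn, 4 of 6 libraries exceeded the wt range, and the log2 fold change was 0.33 (SE 0.10; edgeR adjusted p = 0.134). Eif2ak2 (PKR), the kinase that halts translation on double-stranded RNA, was the highest sensor per length and had a log2 fold change of 0.19 (SE 0.16; edgeR adjusted p = 0.629). The regulatory helicase Dhx58 had 0.43 (edgeR adjusted p = 0.285) and the helicase Ifih1 the smallest difference of the sensors tested, 0.15.

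The transcription factors differed among themselves in the HIP. Irf7, which drives type I interferon transcription, stood at 0.919, 1.82 and 2.61 CPM in wt and 1.70, 2.84 and 6.31 CPM in Ts65Dn, with overlapping groups and a log2 fold change of 0.87 (SE 0.32; edgeR adjusted p = 0.228). Stat2 stood at 18.3, 22 and 24 CPM in wt and 19.7, 21 and 23.7 CPM in Ts65Dn. The Stat2 groups lay within each other, with a log2 fold change of −0.01 (SE 0.07; edgeR adjusted p = 0.949). Irf9, the DNA-binding partner of STAT2, had a log2 fold change of 0.30 (SE 0.14; edgeR adjusted p = 0.358). Irf9 shares 123 exonic bases with its neighbour Rnf31, and Irf7 shares 45 bases with Phrf1 on the opposite strand.

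In the IFIT family, Ifit1, Ifit3 and Ifit3b had log2 fold changes of 0.51, 0.57 and 0.52 in the HIP, with edgeR adjusted p-values of 0.402, 0.339 and 0.309. Reads from Ifit3 and Ifit3b may be exchanged, as the genes are near copies. Ifit2, the most abundant member per length, had 11.31, 12.18 and 12.97 CPM in wt HIP and 11.0, 12.5 and 15.4 CPM in Ts65Dn, with a log2 fold change of 0.08 (SE 0.09; edgeR adjusted p = 0.729). In the OAS family, whose products activate RNase L or resemble enzymes that do, Oasl2 stood at 2.70, 3.03 and 3.44 CPM in wt and 2.33, 4.26 and 7.43 CPM in Ts65Dn. The Ts65Dn libraries of Oasl2 lay on both sides of the wt range, and the log2 fold change was 0.56 (SE 0.25; edgeR adjusted p = 0.318).

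Rsad2 (viperin), an enzyme that makes a chain-terminating nucleotide, had 1.59, 2.14 and 2.54 CPM in wt HIP, 2.08, 3.05 and 3.69 CPM in Ts65Dn and a log2 fold change of 0.49 (SE 0.17; edgeR adjusted p = 0.190). Its neighbour Cmpk2 had 25.2, 26.1 and 29.2 CPM in wt and 24.8, 27.6 and 32.0 CPM in Ts65Dn, with a log2 fold change of 0.07 (edgeR adjusted p = 0.642). Among the membrane restriction factors, Bst2 (tetherin), which holds virus particles on the cell surface, had 2.56, 2.97 and 6.26 CPM in wt and 2.68, 4.49 and 12.6 CPM in Ts65Dn. The highest wt value of Bst2, that of wt replicate 2, lay above the Ts65Dn median, and the log2 fold change was 0.87 (SE 0.37; edgeR adjusted p = 0.292). Ifitm3 had a log2 fold change of 0.43 (SE 0.19; edgeR adjusted p = 0.321).

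Dtx3l, a ubiquitin ligase that works with PARP9, stood at 6.62, 7.70 and 9.07 CPM in wt HIP and 7.17, 10.4 and 10.9 CPM in Ts65Dn. In Ts65Dn, 5 of 6 libraries lay above the wt range, and the lowest was the library labelled replicate 3. The log2 fold change was 0.35 (SE 0.11; edgeR adjusted p = 0.144). Parp9 and Parp14, ADP-ribosyltransferases or relatives of them, had 0.31 (edgeR adjusted p = 0.281) and 0.39 (edgeR adjusted p = 0.325). Dtx3l (Mmu16, bases 35926511 to 35939151 of GRCm38), Parp9 (35938470 to 35972605), Parp14 (35832874 to 35871544) and the receptor-transporting protein gene Rtp4 (23520291 to 23614222) lie on Mmu16 but outside the triplicated part. Parp9 and Dtx3l share 458 bases on opposite strands.

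The 7 interferon-inducible GTPases act on vacuoles that hold pathogens. Of these, 6 were higher in the HIP at an unadjusted p under 0.05 (7.23% of all genes). Irgm1, a regulator of the other GTPases, had 8.92, 9.40 and 11.3 CPM in wt and 10.1, 12.1 and 14.4 CPM in Ts65Dn. In Ts65Dn, 4 of 6 Irgm1 libraries exceeded the wt range, and the log2 fold change was 0.32 (SE 0.10; edgeR adjusted p = 0.135; DESeq2 adjusted p = 0.0461). Igtp had 2.04, 2.67 and 3.51 CPM in wt and 2.67, 3.88 and 7.36 CPM in Ts65Dn, with a log2 fold change of 0.73 (SE 0.24; edgeR adjusted p = 0.162). Irgm2, which shares 162 bases with Igtp, had the same log2 fold change of 0.73 (SE 0.29; edgeR adjusted p = 0.259), and Gbp7, the exception among the GTPases, had −0.11 (SE 0.15; edgeR adjusted p = 0.791).

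Among the other induced genes, Sp100, a nuclear body protein, stood at 2.06, 2.42 and 2.88 CPM in wt HIP and 2.53, 3.37 and 4.51 CPM in Ts65Dn. In Ts65Dn, 5 of 6 libraries lay above the wt range, and the log2 fold change was 0.54 (SE 0.15; edgeR adjusted p = 0.116; DESeq2 adjusted p = 0.0403). Lgals3bp, a secreted galectin ligand, had 11.2, 13.5 and 23.8 CPM in wt and 9.39, 19.4 and 48.2 CPM in Ts65Dn, with a log2 fold change of 0.74 (SE 0.34; edgeR adjusted p = 0.327). Ifi27, the highest of the 41 per length, had 29.8, 33.5 and 39.1 CPM in wt and 28.9, 33.4 and 54.2 CPM in Ts65Dn, with nearly equal medians and a log2 fold change of 0.18 (SE 0.15; edgeR adjusted p = 0.619). The remaining genes, Oas1a, Oas2, Gbp2, Gbp3, Iigp1, Ifi35, Ifi44, Rtp4 and Xaf1, had log2 fold changes from 0.25 (Xaf1) to 0.63 (Ifi44), with edgeR adjusted p-values from 0.192 (Iigp1) to 0.673 (Oas1a). Rtp4 shares 296 exonic bases with the annotated gene Gm45338, and Ifi35 shares 290 with Gm11626 on the opposite strand.

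**Figure D3:**
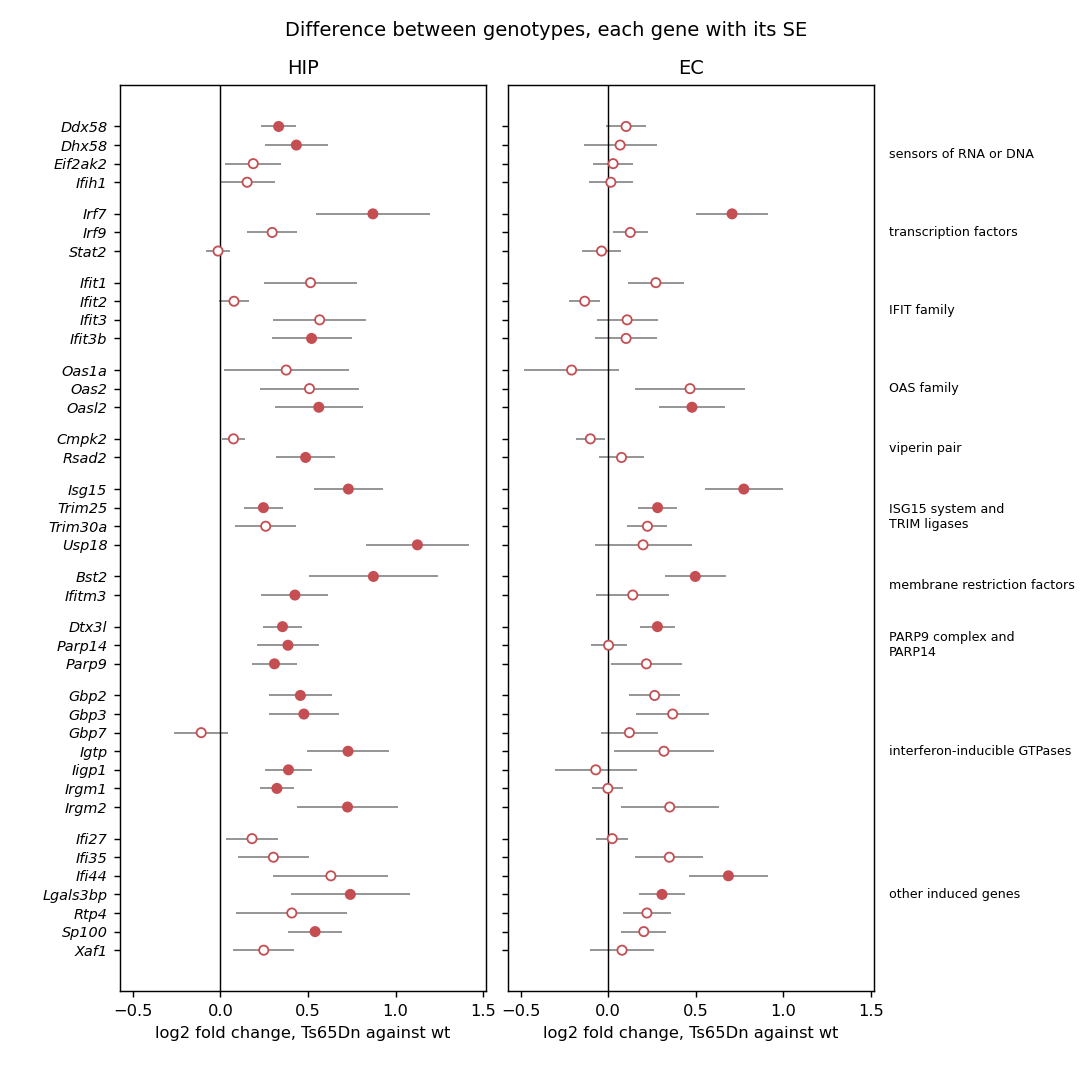
Log2 fold change of Ts65Dn against wt for each interferon-stimulated gene tested, in the HIP and the EC, with bars for the standard error, genes in function groups and filled points for an unadjusted p under 0.05. In the HIP 37 of 39 points lie above 0 and in the EC 33 of 39, and none passes an adjusted p of 0.05 in edgeR.

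The same comparison in the EC (n = 6 each) gave smaller differences. No gene of the 39 passed an adjusted p of 0.05 in edgeR, where 2.5% of the 17049 genes tested did. At an unadjusted p under 0.05, 8 of 39 were higher and 0 lower (Trim25, Irf7, Ifi44, Oasl2, Lgals3bp, Isg15, Bst2 and Dtx3l), against 9.01% of all genes that were higher and 9.97% that were lower. DESeq2 called 2 of the 37 with an adjusted p, Irf7 and Isg15, where it called 7.03% of all such genes. No gene had groups that did not overlap, which 1.27% of all genes had in the higher and 1.18% in the lower direction. The log2 fold change was above 0 for 33 of 39 genes, against 51.3% of all genes, and its median was 0.20 against 0.005 over all genes. That median was 0.09 without Ts65Dn replicate 1, 0.13 without Ts65Dn replicate 2, 0.13 without wt replicate 3 and 0.24 without Ts65Dn replicate 3. Without the last mouse, 11 genes were higher at an unadjusted p under 0.05 (9.11% of all genes) and Ifi44 was called (2.79% of all genes were).

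Isg15 had the highest log2 fold change in the EC, 0.77 (SE 0.22; edgeR adjusted p = 0.0794; DESeq2 adjusted p = 0.024). It stood at 0.711, 1.16 and 1.75 CPM in wt EC and at 1.53, 1.97 and 2.68 CPM in Ts65Dn, where 3 of 6 libraries exceeded the wt range. Irf7 had 1.34, 1.79 and 2.63 CPM in wt EC and 2.31, 2.87 and 4.21 CPM in Ts65Dn. In Ts65Dn, 4 of 6 Irf7 libraries lay above the wt range, and the log2 fold change was 0.71 (SE 0.21; edgeR adjusted p = 0.0811; DESeq2 adjusted p = 0.0235). Of the fits that left out a mouse, edgeR called Irf7 only in the one without wt replicate 2 (edgeR adjusted p = 0.0487). That mouse had the highest wt value of Irf7 in the EC, 2.63 CPM.

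Ifi44, an induced cytoplasmic protein, had 0.752, 0.968 and 1.30 CPM in wt EC and 0.760, 1.67 and 2.34 CPM in Ts65Dn. Of its Ts65Dn libraries, 5 lay above the wt range and the other, labelled replicate 3, near the lowest wt value. The log2 fold change was 0.69 (SE 0.23; edgeR adjusted p = 0.116), and without that mouse it was 0.83 (edgeR adjusted p = 0.0222). In the HIP, Ifi44 had a log2 fold change of 0.63 (SE 0.33; edgeR adjusted p = 0.40).

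Bst2 in the EC had 1.38, 2.37 and 3.33 CPM in wt and 2.64, 3.41 and 3.88 CPM in Ts65Dn, with 3 of 6 Ts65Dn libraries above the wt range and a log2 fold change of 0.50 (SE 0.17; edgeR adjusted p = 0.136). Dtx3l had 6.41, 7.13 and 7.56 CPM in wt and 7.30, 8.64 and 10.1 CPM in Ts65Dn. In Ts65Dn, 4 of 6 Dtx3l libraries exceeded the wt range, and the log2 fold change was 0.28 (SE 0.10; edgeR adjusted p = 0.150). The log2 fold change in the EC was 0.48 for Oasl2 (SE 0.19; edgeR adjusted p = 0.186) and 0.14 for Ifitm3 (SE 0.21; edgeR adjusted p = 0.775).

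Several genes whose HIP values stood out did not do so in the EC. Usp18 had 0.440, 0.798 and 1.16 CPM in wt EC and 0.507, 0.900 and 1.29 CPM in Ts65Dn, with a log2 fold change of 0.20 (SE 0.28; edgeR adjusted p = 0.760). Irgm1 had 11.0, 12.6 and 15.0 CPM in wt EC and 11.7, 13.2 and 14.5 CPM in Ts65Dn, with overlapping groups (edgeR adjusted p = 0.994). Of the 7 GTPases, 0 were higher in the EC at an unadjusted p under 0.05 (9.01% of all genes). Log2 fold changes in the EC were 0.20 for Sp100 (SE 0.13; edgeR adjusted p = 0.425), 0.10 for Ddx58 (edgeR adjusted p = 0.690), 0.32 for Igtp (SE 0.29; edgeR adjusted p = 0.598), 0.03 for Eif2ak2 (edgeR adjusted p = 0.928) and 0.02 for Ifi27 (edgeR adjusted p = 0.926). Stat2 at −0.04, Ifit2 at −0.13 and Cmpk2 at −0.10 had edgeR adjusted p-values of 0.898, 0.459 and 0.559.

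**Figure D4:**
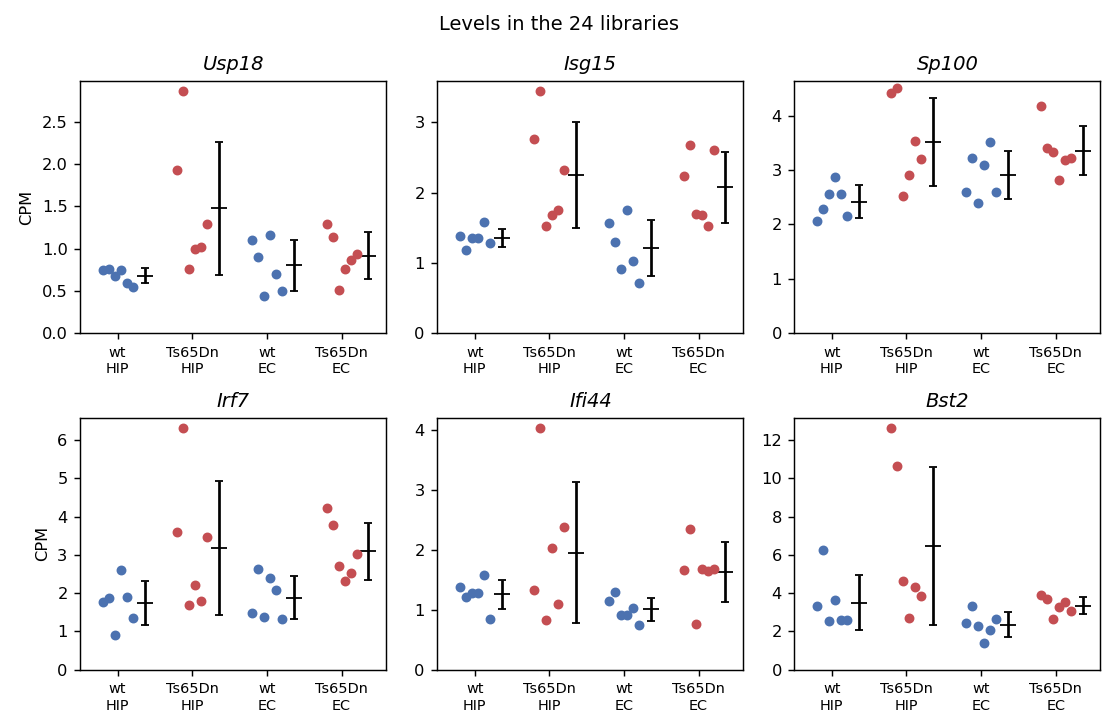
Levels of Usp18, Isg15, Sp100, Irf7, Ifi44 and Bst2 in the 24 libraries (y axis, CPM from 0), by genotype and region, with points for libraries in order of replicate number and bars for the group mean and SD (n = 6). For Usp18 the HIP groups do not overlap (0.540 to 0.759 CPM in wt, 0.762 to 2.86 CPM in Ts65Dn), and for the other 5 genes they do.

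Whether the effect of genotype differed between regions was tested with an interaction term over all 24 libraries. No gene of 40 tested passed an adjusted p of 0.05, in edgeR or in DESeq2, where 0.0% of the 18109 genes tested did in either. At an unadjusted p under 0.05, 4 of the 40 differed (4.1% of all genes did), each with a larger difference in the HIP. They were Usp18 (0.83 on the log2 scale), Irgm1 (0.31), Rsad2 (0.39) and Iigp1 (0.46). The interaction was above 0 for 34 of 40 genes, against 49.9% of all genes, with a median of 0.16. Without Ts65Dn replicate 3, the median was 0.18, 6 genes were above 0 at an unadjusted p under 0.05 (2.99% of all genes) and 1 below, with 0 called by edgeR. The larger values in the HIP were thus not shown, for any single gene, to differ from those in the EC.

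The spread between mice was itself unequal in the HIP. The median SD of log2 CPM over the 39 genes was 0.18 in wt and 0.43 in Ts65Dn, against 0.15 and 0.18 over all genes tested. The SD was larger in Ts65Dn for 37 of 39 genes, against 63.9% of all genes. In the EC, the medians were 0.26 in wt and 0.23 in Ts65Dn, and the SD was larger in Ts65Dn for 19 of 39, against 56.2% of all genes. In 25 of 39 genes the 2 highest HIP libraries were Ts65Dn replicates 1 and 2, which held for 2.87% of all genes. In the EC this held for 7 of 39, against 2.65%. These 2 mice were singled out after their values were seen.

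The deviation of a mouse from its genotype mean was shared between its HIP and EC for part of the genes. Over the 12 mice, the Pearson correlation between HIP and EC deviations had a median of 0.50 over the 39 genes, from 0.08 (Dhx58) to 0.89 (Irgm2), against a median of 0.26 over 16592 genes. It was above 0.5 in 19 of 39 genes, against 25.9% of all genes. Stat2, at 0.87, and the guanylate-binding protein Gbp3, at 0.86, followed Irgm2. Both libraries of a mouse share the animal, so these values are a description without a test.

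Markers of other cell types moved with the HIP scores in part. Among the Ts65Dn libraries, the score of 6 meningeal fibroblast markers was 0.93 in replicate 1 and 1.38 in replicate 2, 0.57 in replicate 3 and −0.68 to −0.02 in the others, against −0.71 to 0.34 in wt. These 6 summed to 36.8 to 86.6 CPM in wt HIP and 39.1 to 162 CPM in Ts65Dn HIP. The score of the 4 border macrophage markers tested in the HIP was 0.30 and 1.11 in replicates 1 and 2, 0.73 in replicate 3 and −0.61 to −0.01 in the others. All 6 markers of that list summed to 5.87 to 8.31 CPM in wt and 4.59 to 16.8 CPM in Ts65Dn. For 6 choroid plexus markers, the sums were 91.7 to 4880 CPM in wt HIP and 55.4 to 5120 CPM in Ts65Dn HIP. The choroid plexus score was 1.96, 1.06 and 1.36 in Ts65Dn replicates 1, 2 and 3 and 1.93 in wt replicate 2. That wt library also had the highest wt values of Bst2 (6.26 CPM) and Lgals3bp (23.8 CPM), whereas its interferon-stimulated score was 0.04. Ts65Dn replicate 6, whose score was 0.37, had choroid plexus, meningeal and macrophage scores of −2.09, −0.02 and −0.01. The HIP endothelial score was 0.21, 0.29 and 0.19 in Ts65Dn replicates 1, 2 and 3, against −0.13 to 0.15 in wt. It was −0.05 to 0.13 in the other Ts65Dn mice. In the EC, the meningeal score was 0.25, 0.48 and −0.80 in Ts65Dn replicates 1, 2 and 6. It was −0.55 to 0.42 in the other Ts65Dn mice and −0.65 to 1.08 in wt. The highest of these, in wt replicate 2, went with an interferon-stimulated score of 0.13. The part of these cell types in the Ts65Dn values was not tested.

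The sums of microglial markers overlapped between genotypes in both regions. The 10 markers summed to 415 to 475 CPM in wt HIP and 383 to 447 CPM in Ts65Dn HIP. Their HIP scores were 0.10, 0.04 and −0.04 in Ts65Dn replicates 1, 2 and 6. They were −0.27, −0.17 and 0.03 in replicates 3, 4 and 5, against −0.09 to 0.16 in wt. In the EC, the 10 markers summed to 441 to 612 CPM in wt and 418 to 543 CPM in Ts65Dn. Their EC score was −0.35 in Ts65Dn replicate 6 and −0.17 to 0.09 in the other Ts65Dn mice, against −0.24 to 0.23 in wt. The median log2 fold changes of these markers were −0.05 (HIP) and −0.11 (EC). P2ry12, a purinergic receptor of resting microglia, was the marker called in each region, and fell by 0.27 in the HIP (edgeR adjusted p = 0.0422) and by 0.45 in the EC (edgeR adjusted p = 0.0226) on the log2 scale. The median log2 fold changes in the HIP were −0.11 for 6 astrocyte markers, 0.09 for 7 endothelial markers, 0.52 for the meningeal fibroblast markers, 0.30 for the choroid plexus markers, 0.42 for the 4 border macrophage markers tested, −0.39 for 5 red blood cell markers and 0.04 for 4 neuronal markers, with no gene of these lists called by edgeR. DESeq2 called the astrocyte gene Slc1a3 and the fibroblast gene Col1a1. Of the red blood cell markers, Hba-a2 stood at 0.105, 0.029 and 0 CPM in the HIP of Ts65Dn replicates 1, 2 and 3. It stood at 0.055, 0.1 and 0.181 CPM in their EC. In the other libraries it was at 2.08 to 8.34 CPM (HIP) and 5.57 to 20.6 CPM (EC). Hba-a1 stood at 23.9 to 35.4 CPM in the HIP of the same mice, against 17.5 to 34.6 CPM in wt. The cause of this split was not tested. The 7 T and B cell markers summed to at most 2.17 CPM in any library. No marker of any of these lists was at 0 throughout a group.

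The rest of the pathway was read from lists of its other genes. Of 21 interferon ligand genes, 5 received any count, the highest total was 6 counts over the 24 libraries and none could be tested. Among the receptors, 4 of 6 tested rose in Ts65Dn HIP: Ifnar1 and Ifnar2, the subunits of the type I receptor, by 0.51 (SE 0.09; edgeR adjusted p = 0.0218) and 0.61 (SE 0.08; edgeR adjusted p = 0.00577) on the log2 scale, Ifngr2 by 0.66 (edgeR adjusted p = 0.0282) and Il10rb, a subunit of the type III receptor, by 0.61 (edgeR adjusted p = 0.0219). These 4 genes lie in the triplicated part of Mmu16. At an unadjusted p under 0.05 in edgeR, 5 of the 6 receptors were higher in the HIP (7.23% of all genes). Ifnlr1, a type III receptor gene that is not triplicated, had the highest log2 fold change of the list, 0.99, and no call. It stood at 0.119 to 0.498 CPM in wt HIP and 0.364 to 0.970 CPM in Ts65Dn HIP, with 209 counts over the 24 libraries. In the EC, Ifnar1 (0.52; edgeR adjusted p = 0.0136), Ifnar2 (0.52; edgeR adjusted p = 0.0229) and Ifngr2 (0.73; edgeR adjusted p = 0.00752) rose. Il10rb had 0.42 there (SE 0.11; edgeR adjusted p = 0.0624) and was called by DESeq2. Of the 5 receptors tested in the EC, 4 were higher at an unadjusted p under 0.05 in edgeR (9.01% of all genes). The receptor values of both regions include Ts65Dn replicate 3, whose libraries lacked the raised dosage. In the EC, Il10rb stood at 7.74 CPM in that mouse, 9.83 to 12.7 CPM in the other Ts65Dn mice and 6.35 to 8.79 CPM in wt. Ifnar1 stood there at 47.3 CPM, 68.2 to 73.4 CPM and 43.0 to 49.4 CPM in the same order. Ifngr1, the other subunit of the interferon gamma receptor, is not triplicated and had log2 fold changes of 0.04 (edgeR adjusted p = 0.844) and 0.05 (edgeR adjusted p = 0.777).

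Downstream of the receptors, none of the 10 JAK, STAT and IRF genes tested was called in either region by edgeR. At an unadjusted p under 0.05, 1 was higher in the HIP (7.23% of all genes) and 3 were in the EC (9.01%). DESeq2 called 0 in the HIP and, in the EC, 1 (Irf3). The median log2 fold changes were 0.06 and 0.09. The log2 fold changes of Irf1 were −0.05 in the HIP (edgeR adjusted p = 0.898) and −0.02 in the EC (edgeR adjusted p = 0.967). Mx2, a triplicated gene that interferon also induces, had 0.72 (SE 0.30; edgeR adjusted p = 0.278) and 0.56 (edgeR adjusted p = 0.423), and Mx1, with 165 counts in all, was not tested. Of the negative regulators, 7 could be tested for the HIP and 8 for the EC, with medians of 0.03 and 0.02. Neither tool called any of them, and at an unadjusted p under 0.05 there were 1 in the HIP (14.8% of all genes) and 2 in the EC (19.0%). Of 10 genes of upstream nucleic acid sensing, Tlr9, an endosomal DNA receptor, rose in the EC (0.54; edgeR adjusted p = 0.0484). None was called by edgeR in the HIP, where the median was 0.06. In the HIP, 1 had an unadjusted p under 0.05 (14.8% of all genes) and DESeq2 called 1 (Myd88). In the EC, DESeq2 called Tlr9 and Myd88. Among 56 further induced genes, 42 were tested in the HIP, with a median of 0.28 and 0 called by edgeR or DESeq2. Of the 42, 36 were above 0 (51.3% of all genes). At an unadjusted p under 0.05, 13 were higher (7.23% of all genes) and 0 lower (7.59%). In the EC, 39 were tested, with a median of 0.09 and 25 above 0 (51.3% of all genes). At that level, 4 of the 39 were higher in the EC (9.01% of all genes) and 1 lower (9.97%). There Nlrc5, an activator of MHC class I genes, rose by 1.34 on the log2 scale (SE 0.33; edgeR adjusted p = 0.0451), whereas DESeq2 called Gbp4 in its place.

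The same mice gave both regions, so the HIP was compared with the EC within each genotype with the mouse as a block. In wt, 18 of 39 interferon-stimulated genes (46.2%) passed an adjusted p of 0.05 in edgeR, where 61.3% of the 17196 genes tested did. Of these, 9 were higher in the HIP (31.0% of all genes) and 9 lower (30.3%). Groups did not overlap for 2 genes higher in the HIP, Ddx58 and Ifi27 (17.8% of all genes), and for 1 lower, Ifit2 (16.4%). DESeq2 called 14 of the 39, where it called 53.5% of all genes. Cell markers differed too: in edgeR, 6 of 6 choroid plexus markers were called higher in the wt HIP (31.0% of all genes). There, 7 of 7 endothelial and 8 of 10 microglial markers were called lower (30.3%). The part of these cell types in the regional differences was not tested.

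Genes higher in the wt HIP came from several function groups. Ifi27 stood at 29.8, 33.5 and 39.1 CPM in wt HIP and 18.7, 19.9 and 24.2 CPM in wt EC, and rose by 0.71 (SE 0.08; edgeR adjusted p = 3.03e-05) on the log2 scale, in 6 of 6 mice. Xaf1, a pro-apoptotic binding partner of XIAP, was higher by 0.66 (SE 0.13; edgeR adjusted p = 0.00125), Bst2 by 0.54 (SE 0.17; edgeR adjusted p = 0.0198) and Oasl2 by 0.53 (SE 0.14; edgeR adjusted p = 0.00670). Of the sensors, Ddx58 had 5.06, 5.83 and 6.74 CPM in wt HIP against 3.96, 4.57 and 5.06 CPM in wt EC (log2 0.36, SE 0.08; edgeR adjusted p = 0.00237), and Eif2ak2 was higher by 0.28 (edgeR adjusted p = 0.00774). Stat2 (0.14; edgeR adjusted p = 0.0223), Gbp7 (0.34; edgeR adjusted p = 0.0100) and Iigp1 (0.38; edgeR adjusted p = 0.0453) were the others.

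The 9 genes lower in the wt HIP included 3 of the 4 IFIT genes. Ifit2 had 11.31, 12.18 and 12.97 CPM in wt HIP and 14.0, 15.5 and 19.8 CPM in wt EC, a fall of 0.40 (SE 0.07; edgeR adjusted p = 0.000695) on the log2 scale. Ifit3 fell by 0.47 (edgeR adjusted p = 0.00710) and Ifit3b by 0.56 (edgeR adjusted p = 0.00325), whereas Ifit1 had a log2 difference of 0.22 (edgeR adjusted p = 0.142). Ifih1, which senses long double-stranded RNA, had 4.33, 5.28 and 6.48 CPM in wt HIP and 6.31, 7.52 and 9.83 CPM in wt EC, a log2 difference of −0.51 (SE 0.10; edgeR adjusted p = 0.00138) opposite to that of Ddx58. The GTPases Igtp (−0.55; edgeR adjusted p = 0.00421), Irgm1 (−0.42; edgeR adjusted p = 0.000151) and Irgm2 (−0.33; edgeR adjusted p = 0.0185), with Cmpk2 (−0.33; edgeR adjusted p = 0.00111) and Parp14 (−0.23; edgeR adjusted p = 0.0490), made up the rest.

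The weaker of these calls in wt depended on single mice. Those of Parp14 and Iigp1 held in 1 of 6 fits that left out a mouse, with edgeR adjusted p-values up to 0.124 and 0.123. That of Parp14 held only without wt replicate 3 and that of Iigp1 only without wt replicate 4. Stat2 lost its call without wt replicate 3 or 5 (edgeR adjusted p up to 0.0717), Irgm2 without wt replicate 1 or 2 (up to 0.0693) and Bst2 without wt replicate 2 (0.0781). DESeq2 did not call Parp14, Iigp1, Stat2 or Irgm2. The other 13 calls held in 6 of 6 fits.

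In Ts65Dn, 12 of 40 genes (30.0%) passed an adjusted p of 0.05 between regions in edgeR, where 52.3% of the 17314 genes tested did. Of these, 9 were higher in the HIP (26.6% of all genes) and 3 lower (25.7%). Ddx58, Xaf1 and Ifi27 were higher without overlap (13.6% of all genes), and 0 were lower without overlap (13.5%). DESeq2 called 9 of the 40, where it called 47.2% of all genes. Without Ts65Dn replicate 1, 7 genes were called (46.2% of all genes), without replicate 2 also 7 (47.5%), without replicate 3, 11 (47.9%), and with no mouse block, 6 (48.2%).

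The values of Ifi27 (0.83, SE 0.09; edgeR adjusted p = 2.34e-05), Xaf1 (0.76, SE 0.15; edgeR adjusted p = 0.00151), Ddx58 (0.59, SE 0.10; edgeR adjusted p = 0.000568) and Oasl2 (0.53, SE 0.16; edgeR adjusted p = 0.0190) were of the same sign as in wt. Bst2 (0.78, SE 0.24; edgeR adjusted p = 0.0190), Eif2ak2 (0.42, SE 0.15; edgeR adjusted p = 0.0353) and Iigp1 (0.84, SE 0.15; edgeR adjusted p = 0.00107) were also called in both genotypes. Usp18 was higher in the HIP of 6 of 6 Ts65Dn mice (0.63, SE 0.19; edgeR adjusted p = 0.0162), whereas in wt its difference was −0.21 (edgeR adjusted p = 0.406). Irf9 was called in Ts65Dn (0.33, SE 0.10; edgeR adjusted p = 0.0184). Lower in the Ts65Dn HIP were Ifih1 (−0.40, SE 0.12; edgeR adjusted p = 0.0170), Ifit2 (−0.21, SE 0.07; edgeR adjusted p = 0.0349) and Cmpk2 (−0.16, SE 0.06; edgeR adjusted p = 0.0390).

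In Ts65Dn, the calls of Ifi27, Xaf1, Ddx58 and Iigp1 held in 6 of 6 fits that left out a mouse. That of Cmpk2 held in 1 (without replicate 6), that of Eif2ak2 in 2 (without replicate 4 or 6) and that of Ifit2 in 2 (without replicate 2 or 3), with edgeR adjusted p-values up to 0.147, 0.115 and 0.112. Oasl2 and Bst2 lost their calls without replicate 1 or 2 (edgeR adjusted p up to 0.0678 and 0.0703), Ifih1 without replicate 5 or 6 (up to 0.0596), and Usp18 and Irf9 without replicate 2 (0.0661 and 0.0611). DESeq2 did not call Usp18, Ifit2 or Cmpk2.

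Several leading genes of the genotype comparisons were not called between regions. Isg15 had log2 differences of 0.19 in wt (edgeR adjusted p = 0.413) and 0.09 in Ts65Dn (edgeR adjusted p = 0.584), Dtx3l 0.11 (edgeR adjusted p = 0.265) and 0.18 (edgeR adjusted p = 0.11), and Ifitm3 −0.02 (edgeR adjusted p = 0.860) and 0.26 (edgeR adjusted p = 0.176). Igtp, lower in the wt HIP, had −0.20 (edgeR adjusted p = 0.314) in Ts65Dn, and Irgm1 had −0.12 (edgeR adjusted p = 0.263). In all, 10 of the 39 genes tested in both genotypes were called in both, where 48.3% of 16953 genes were. A further 10 were called in a single genotype (17.7% of all genes) and 19 in neither (33.9%).

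**Figure D5:**
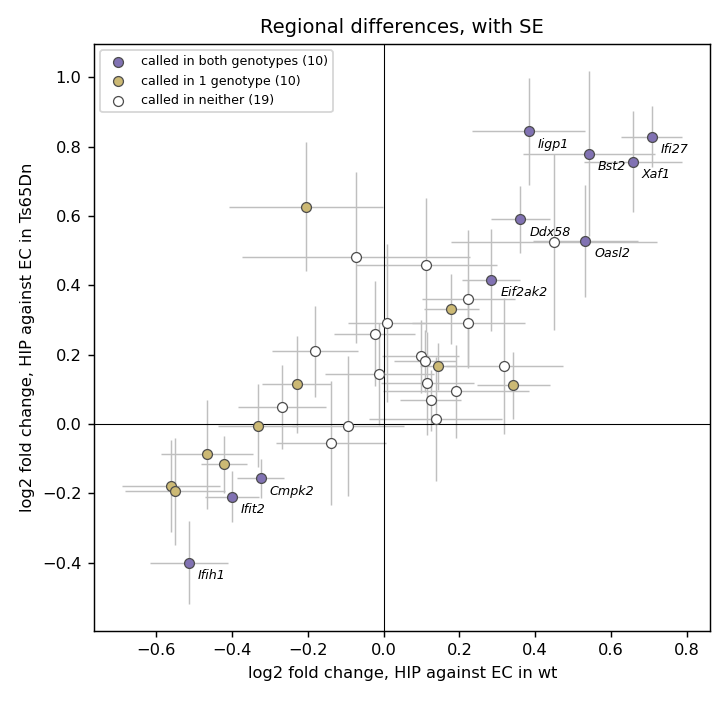
Log2 difference between HIP and EC of each interferon-stimulated gene in wt (x axis) and in Ts65Dn (y axis), with bars for the standard error and colours for the number of genotypes in which the difference passed an adjusted p of 0.05 in edgeR. Ifi27, Xaf1 and Ddx58 are higher in the HIP and Ifih1, Ifit2 and Cmpk2 lower, in both genotypes, though in Ts65Dn the Ifih1, Ifit2 and Cmpk2 calls did not hold in every fit that left out a mouse.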

How the data were processed

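Reads of 50 bases from single ends were aligned by the authors with Hisat2 (GRCm38, Ensembl release 99), and the raw counts per gene that HTSeq-count gave were deposited. The labels add bcl2fastq 2.17.1.14 and DESeq2. Library preparation is described as stranded mRNA in the labels and as stranded total RNA in the methods, and the strand setting of the counting is not given in the sources used here. The deposited comparison columns (DESeq2 mean normalized counts, log2 fold changes and p-values, and FCROS ratios, scores and p-values) hold the study's own results and were not used. No column was left unused for lack of a label (0 columns).

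Gene names, positions and lengths came from GENCODE M21 (99.6% of 55385 identifiers matched). The genes and lists were chosen with earlier results of these data known. All 41 genes were accounted for. Full statistics were given for genes called, for the 6 smallest p-values of each comparison, and for the member of each function group with the highest RPKM. Of the other pathway genes, 1 that was to be named is not reported here. Counts were filtered with filterByExpr, scaled by TMM and tested across all genes with edgeR 4.0.16 (quasi-likelihood, 2-sided, Benjamini-Hochberg, adjusted p under 0.05) in R 4.3.3. Log2 CPM for scores used a prior count of 2. Genotypes were compared within a region without a block. Regions were compared with the mouse as a block, since titles share the animal number and the deviations of the HIP and EC of a mouse correlated at 0.23 to 0.49 across genes. The test was also run on simulated counts that had no mouse effect, so that run did not check the mouse block. Alternatives were DESeq2 1.42.0, DESeq2 size factors, no filter or at least 10 counts in every library, a GC and length offset, the other use of the replicate block, and leaving out each mouse. Total counts of 23128589 to 40476492 per library set the precision.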

Additional observations from a re-analysis of the deposited data

Results flagged for a closer look

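In 160 groups of 6 libraries (each gene tested, in each region and genotype), the highest or lowest library was set against the others by Dixon's ratio of its gap to the range (critical value 0.625). Chance alone marks about 1 in 20 groups, and 8 were marked. In wt HIP, Ifit1 stood at 2.88 CPM in replicate 4 against 2.16 to 2.35 in the others, and Ifitm3 at 8.94 CPM in the same library against 6.04 to 6.86. Gbp7 stood at 4.77 CPM in replicate 2 of wt HIP against 5.81 to 6.47. In wt EC, Xaf1 stood at 1.09 CPM in replicate 6 against 2.01 to 2.82. In Ts65Dn EC, Stat2 stood at 25.3 CPM in replicate 5 against 16.9 to 18.7. The other 3 were low values in the mouse labelled Ts65Dn replicate 3, whose libraries lacked the raised dosage of triplicated genes: Dtx3l in the HIP, at 7.17 CPM against 9.82 to 10.9, and in the EC Trim25, at 6.62 CPM against 8.96 to 10.1, and Ifi44, at 0.760 CPM against 1.65 to 2.34. The cause of these values was not tested.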

How the results depend on the processing

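DESeq2 called 4 of the interferon-stimulated genes between genotypes in the HIP and 2 in the EC, against 0 in both with edgeR. When each mouse was left out in turn, edgeR called 0 to 4 in the HIP (0.308% to 1.82% of all genes), 0 to 1 in the EC (0.524% to 3.99%) and, between regions, 14 to 18 in wt (56.2% to 59.2%) and 7 to 13 in Ts65Dn (43.7% to 50.8%). With no replicate block, 13 were called between regions in wt (55.2%), against 18 with it, and 6 in Ts65Dn (48.2%), against 12. Replicate numbers shared by wt and Ts65Dn did not pair the samples, since the correlations of their deviations ran from −0.22 to 0.16 (HIP) and from −0.10 to 0.17 (EC). A replicate block for these numbers left 0 of the genes called in either region, lowered the 22 genes at an unadjusted p under 0.05 in the HIP to 14, and lowered the calls over all genes from 181 to 29 (HIP) and from 426 to 36 (EC). Over all genes, DESeq2 called 631 (HIP) and 1105 (EC), the GC and length offset 97 and 143, and no filter 135 and 275. The log2 difference of Ifitm3 between regions in wt turned from −0.024 to 0.099 with the GC and length offset and ranged from −0.107 to 0.083 when each mouse was left out. Leaving out each mouse also turned the sign of the genotype log2 fold change for Stat2 in the HIP (−0.055 to 0.022) and, in the EC, for Eif2ak2 (−0.018 to 0.093), Ifi27 (−0.052 to 0.075), Ifitm3 (−0.059 to 0.255) and Stat2 (−0.134 to 0.016), genes with no call. The cause of these changes was not tested. Among all values of single genes under the alternatives, 851 kept their direction and side of the threshold, 61 lost a call, 17 gained one and 13 changed sign. At 0 to 28 counts per library, Zbp1, Oasl1, Oas1a and Oas2 were too shallow for small differences to be detectable.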
